A study of Homo sapiens with 18 samples.

Results

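The p53 target genes described here are 31 genes whose transcription is known to be raised by the tumour suppressor p53. The members were the rows carrying the listed symbols in the count tables of 2 human diffuse large B-cell lymphoma lines, OCI-Ly1 and TMD8, and all 31 were found among the 23686 gene symbols of the tables. OCI-Ly1 cells, grown in IMDM, and TMD8 cells, grown in RPMI 1640, were each given 0.01% DMSO as vehicle or JIB-04 at 150 nM or 500 nM. JIB-04 is a small molecule that inhibits Jumonji-domain histone demethylases. The 6 groups had 3 ribosome-depleted RNA-seq libraries each, 18 in all, and the labels call the libraries of a group technical triplicates. Whether a group's libraries came from 1 culture or from several is not stated, so the p-values below may measure only the spread of library preparation and sequencing. No duration of treatment is given. The line and its medium changed together and cannot be told apart.

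The p53 protein is held low by MDM2, a ubiquitin ligase that is itself made from a p53 target gene, and p53 rises when cells meet DNA damage or other stress. Active p53 binds a response element made of a pair of 10-base motifs and turns on genes that stop the cell cycle, repair DNA, adjust metabolism or start cell death. Several of these genes also answer to other regulators. GDF15, TNFRSF10B and SESN2, for example, are known to rise through ATF4 or CHOP in the integrated stress response.

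Depth per library, as the sum of estimated counts, lay between 17579732 and 32651115 for OCI-Ly1 and between 9550092 and 20509500 for TMD8. The members together held 53180 to 121706 counts per library in OCI-Ly1 and 33086 to 63076 in TMD8. Each of the 18 pairs of libraries within a group differed by more than sampling noise (chi-square per degree of freedom 1.62 to 10.9), so every library was counted. All 6 B-cell markers examined (MS4A1, CD79A, CD79B, PAX5 and CD22 among them) were over 1 CPM (count per 1000000 counts of a library) in every group, which matches the B-cell label of both lines. Their summed level was 1230 to 1280 CPM with DMSO and 1060 to 1100 at 500 nM in OCI-Ly1, and 2860 to 3080 and 2360 to 2420 in TMD8. The summed levels of the other marker lists were far lower, and several moved with dose. The summed level of 4 T-cell markers in OCI-Ly1 was 18.2 to 21.6 CPM with DMSO and 8.07 to 9.06 at 500 nM, and in TMD8 it was 1.74 to 2.36 and 3.3 to 3.45, with CD3E at 0 in every library. The summed level of 3 fibroblast markers in TMD8 was 4.02 to 4.56 with DMSO and 30.3 to 32.1 at 500 nM, nearly all of it COL1A1, while in OCI-Ly1 it stayed at or under 0.223. The summed level of 3 erythroid markers in TMD8 was 0.262 to 0.537 with DMSO and 1.49 to 1.67 at 500 nM, and in OCI-Ly1 it stayed at or under 0.334. Myeloid markers summed to at most 3.77 CPM and epithelial markers to at most 23.5 CPM in any library. In bulk RNA, fewer cells of a type and less RNA per cell cannot be told apart, and the part of these markers in the results below was not tested.

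Levels are given as CPM after TMM scaling of all 18 libraries together, as the value in each library or as mean ± SD of 3 libraries. Changes are log2 fold changes with their standard error (SE) from an edgeR quasi-likelihood fit. A gene was called higher or lower where its p, adjusted over all genes tested by the Benjamini-Hochberg method, was under 0.05. Of the 31 members, 30 passed the low-count filter in each line. SPATA18 failed it in OCI-Ly1 and PLK2 in TMD8.

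With 150 nM JIB-04, 27 members rose and 1 fell in TMD8, while 3, CDKN1A, PLK2 and TP53INP1, rose in OCI-Ly1 and none fell (3 were lower at an unadjusted p under 0.05 in edgeR, and DESeq2 called none). In TMD8, 19.2% of all tested genes were called higher and 25% lower at that dose, and the median log2 change was 0.65 over the tested members against 0.01 over all genes tested. In OCI-Ly1, 0.748% of all tested genes were called higher and 0.141% lower, with a median change of 0.12 over the members against 0 over all genes. The OCI-Ly1 count at 150 nM was larger without the first 150 nM library: 6 members then rose, the added ones being MDM2 (adjusted p = 0.039), CCNG1 (0.048) and ZMAT3 (0.019). Leaving that library out also raised the calls over all genes, in either direction, from 139 to 339.

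With 500 nM, 27 members rose and 1 fell in TMD8, against 29.9% of all tested genes called higher and 30.7% lower. In OCI-Ly1, 19 members rose and 7 fell, against 27.7% called higher and 25.9% lower among all tested genes. The median member change was 1.03 in TMD8, where that of all tested genes was 0.04, and 0.27 in OCI-Ly1, where it was 0. In TMD8, 15 of the called members had risen by at least 1 on the log2 scale, as had 8.05% of all tested genes; in OCI-Ly1, 8 had, as had 6.13% of all genes. The OCI-Ly1 count was 20 higher and 4 lower on the log2(TPM + 1) scale, where TPM are transcripts per 1000000. On that scale 7263 of all 13739 genes tested were called, and 71.8% of those calls were higher, against 51.6% after TMM scaling.

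**Figure D1:**
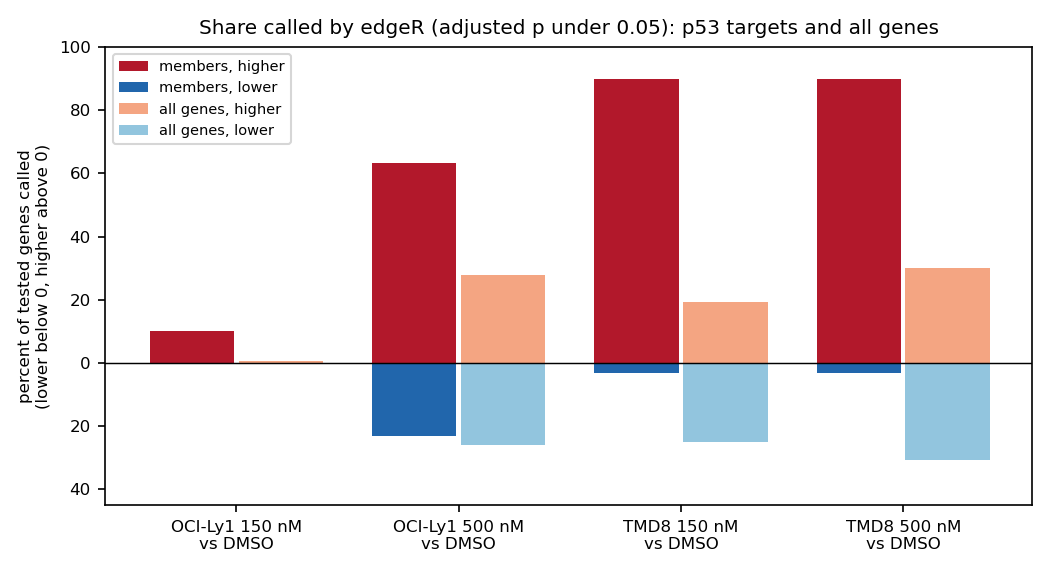
Percent of tested genes called higher (above 0) or lower (below 0) against DMSO at each dose in each line, for the p53 target genes and for all genes tested (edgeR, adjusted p under 0.05). In TMD8 the member bars are the same at both doses, 27 higher and 1 lower of 30, while in OCI-Ly1 they go from 3 higher at 150 nM to 19 higher and 7 lower at 500 nM.

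The lines shared most of the rises at 500 nM. Of the 31 members, 18 rose in both lines: MDM2, PPM1D, CCNG1, CDKN1A, PLK3, FAS, TNFRSF10B, AEN, TP53INP1, NINJ1, PHLDA3, ZMAT3, RPS27L, TRIAP1, DDB2, SESN1, FDXR and GDF15. Among the 14483 genes tested in both lines, 14.1% rose in both. A further 6 members fell in OCI-Ly1 and rose in TMD8, namely BTG2, TP53I3, CYFIP2, POLH, RRM2B and DRAM1, a pattern held by 3.49% of all genes tested in both. GADD45A and XPC rose in TMD8 and were not called in OCI-Ly1, TNFRSF10A fell in OCI-Ly1 and was not called in TMD8, and PERP fell in TMD8 and was not called in OCI-Ly1. MDM4 was called in neither line. The signs of these changes against DMSO were the same on each other scale on which a member was tested. Some calls were lost on TPM scales in both lines.

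**Figure D2:**
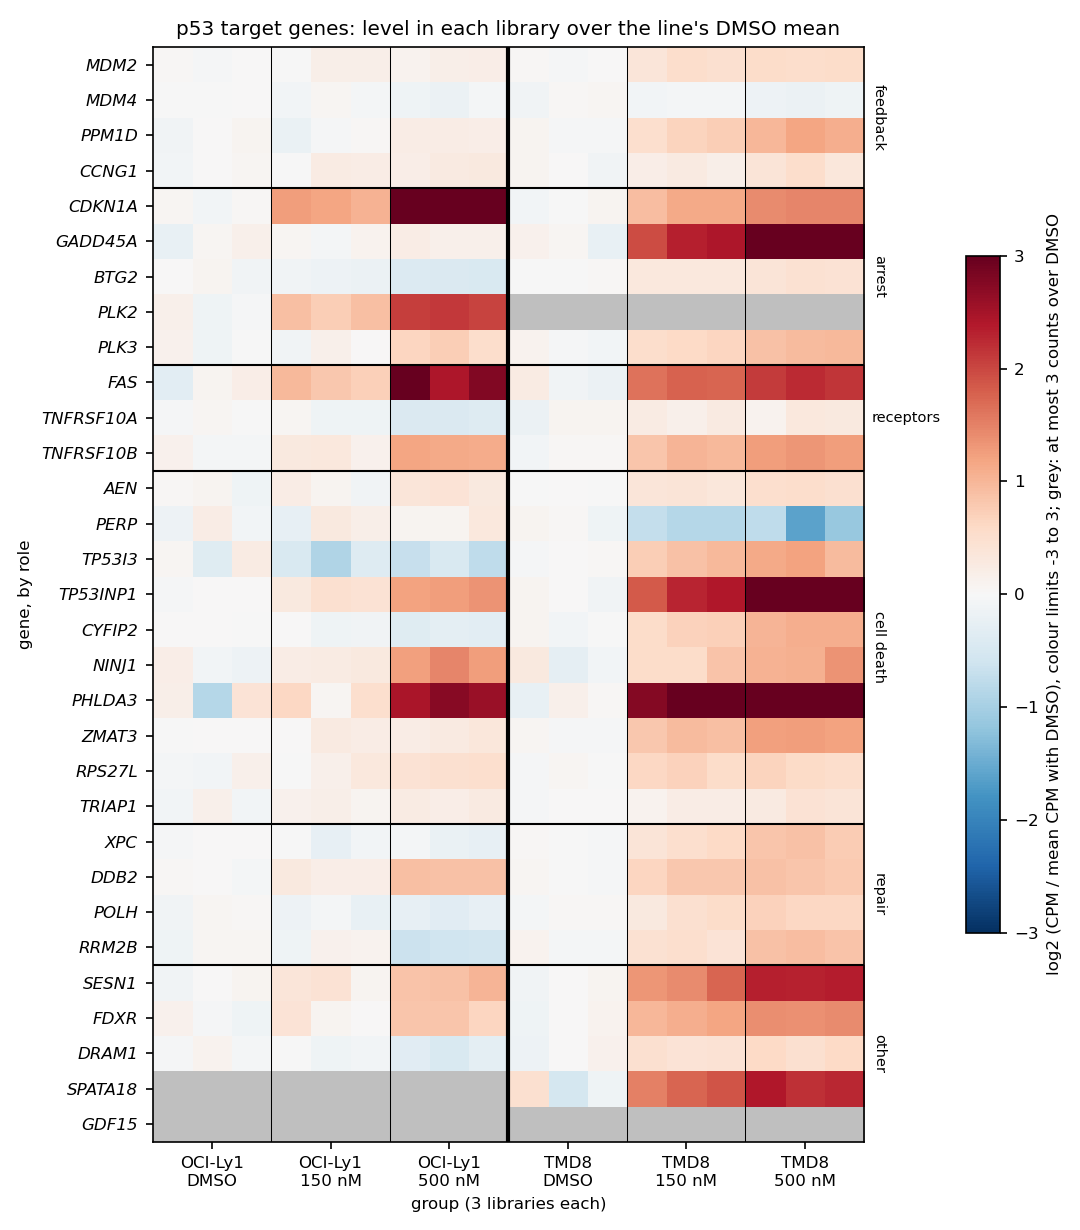
Level of each p53 target gene in each of the 18 libraries, as log2 of its CPM over the mean CPM of the line's DMSO libraries, with genes in rows by role and the 3 libraries of each group side by side. Grey marks a gene with at most 3 counts in all over the line's DMSO libraries; the TMD8 columns are red for most genes at both doses, while OCI-Ly1 holds both red and blue rows at 500 nM.

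The promoters of the members were searched for the p53 motif to show where such letters stand near their start sites. RefSeq promoter sequences of assembly GRCh38.p14 were held for 25 of the 31 members, and the 250 bases before the start site were read on both strands. GADD45A, TNFRSF10A, TNFRSF10B, TP53INP1, PHLDA3 and RRM2B had no entry. The 10-base p53 consensus was present in 4 of the 25 (16%) and in 1109 of 20686 promoters of all genes (5.36%). A side-by-side pair with at most 2 mismatches and the C and G core kept was found in 1 member (4%) and in 44 of all promoters (0.213%). The stretches below are those 4 members, 5′ to 3′ on the gene's own strand, with the matched stretch in capitals. AEN, whose capitals mark the whole pair, the last 2 of them being its mismatches, lies at chr15:88621286-88621339 on the plus strand. PLK2 lies at chr5:58460189-58460238, RPS27L at chr15:63157507-63157556 and FDXR at chr17:74872995-74873025, all on the minus strand.
AEN: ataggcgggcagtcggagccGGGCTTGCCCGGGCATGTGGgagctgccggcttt
PLK2: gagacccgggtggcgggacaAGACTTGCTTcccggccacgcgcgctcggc
RPS27L: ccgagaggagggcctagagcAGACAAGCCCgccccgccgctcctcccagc
FDXR: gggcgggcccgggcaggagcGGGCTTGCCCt
AEN, RPS27L and FDXR rose in both lines at 500 nM, and PLK2 rose in OCI-Ly1, the line in which it could be tested. Of all 31 members, 18 rose in both lines, among them CDKN1A, MDM2, FAS, DDB2 and SESN1, whose promoters held no match. Among all genes tested in both lines, 14.1% rose in both. Whether a match goes with a rise was not tested. The other 21 promoters read held no match in this window, those of CDKN1A and MDM2 among them. A match describes letters only and is not a measured binding site.

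Among the genes that feed back on p53, 3 of 4 rose in each line at 500 nM. The share of all tested genes that rose was 27.7% in OCI-Ly1 and 29.9% in TMD8. So small a group cannot be told from that background by its count. MDM2, the ubiquitin ligase that marks p53 for destruction, stood at 493, 469 and 482 CPM with DMSO, 476, 547 and 546 at 150 nM, then 522, 545 and 555 at 500 nM in OCI-Ly1. In TMD8 it stood at 280, 268 and 278, then 352, 398 and 382, then 402, 398 and 402 CPM. All 3 libraries at 500 nM lay above the DMSO libraries in each line, but in OCI-Ly1 the 150 nM libraries overlapped both groups. The OCI-Ly1 rise at 500 nM was small, 0.17 (SE 0.05, adjusted p = 0.013). It was lost without the second DMSO library (adjusted p = 0.06) or without the second (0.05) or the third (0.056) library at 500 nM, and on the centred TPM scale (0.16). In TMD8, MDM2 rose by 0.46 (SE 0.05, adjusted p = 1.2e-06) at 150 nM and by 0.58 (SE 0.05, adjusted p = 1.8e-08) at 500 nM. On the log2(TPM + 1) scale the change at 500 nM was 0.19 (adjusted p = 0.081).

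That scale moves all of TMD8. The median change of all genes at 500 nM in TMD8 was -0.34 on the log2(TPM + 1) scale against 0.04 after TMM scaling, and -0.16 against 0.01 at 150 nM. Of the genes called at 500 nM in TMD8, 49.3% were higher after TMM scaling, 13.9% on log2(TPM + 1) and 46.7% once each library was centred on its median. The matching shares in OCI-Ly1 were 51.6%, 71.8% and 40%. The largest TPM was that of a small RNA gene in each line, MIR3687 in every TMD8 library and RPPH1 in every OCI-Ly1 library. The part of these genes in the shift was not tested. Because the typical gene moved on this scale, TMD8 changes are read below relative to the typical gene. The TMD8 calls at 500 nM that were lost on log2(TPM + 1) are given with each gene. Those lost at 150 nM were CCNG1 (0.05, adjusted p = 0.72), BTG2 (0.17, adjusted p = 0.16), AEN (0.2, adjusted p = 0.077), NINJ1 (0.45, adjusted p = 0.067) and TRIAP1 (0.03, adjusted p = 0.8).

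PPM1D, the phosphatase WIP1 that switches off p53 and its kinases, was 51.8 ± 3.4 CPM with DMSO and 60.3 ± 0.617 at 500 nM in OCI-Ly1. In TMD8 it was 37.8 ± 1.67, then 58.7 ± 4.8, then 80.3 ± 5.04 CPM. The change at 500 nM was 0.22 (SE 0.07, adjusted p = 0.013) in OCI-Ly1, or 0.16 without the first DMSO library (adjusted p = 0.086), and 1.12 (SE 0.07, adjusted p = 2.3e-10) in TMD8. CCNG1, the cyclin G1 gene, rose at 500 nM by 0.25 (adjusted p = 0.0045) in OCI-Ly1 and by 0.46 (adjusted p = 8.2e-07) in TMD8, where log2(TPM + 1) gave 0.06 (adjusted p = 0.62). MDM4, the MDM2 partner that blocks p53's activity, was not called. Its change at 500 nM was -0.11 (SE 0.05, adjusted p = 0.078) in OCI-Ly1 and -0.12 (SE 0.05, adjusted p = 0.051) in TMD8, and the latter was called without the first TMD8 DMSO library (-0.18, adjusted p = 8.4e-04).

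Of the 5 growth arrest genes, CDKN1A and PLK3 rose in both lines, BTG2 moved in opposite directions, GADD45A rose in TMD8 and PLK2 rose in OCI-Ly1. CDKN1A, which encodes the cyclin-dependent kinase inhibitor p21, stood in OCI-Ly1 at 17, 15.5 and 16.7 CPM with DMSO, 38.9, 37.4 and 34 at 150 nM, then 139, 135 and 134 at 500 nM. In TMD8 it stood at 76.8, 81.3 and 86.1, then 154, 178 and 178, then 216, 224 and 225 CPM. No library of 1 dose overlapped those of another in either line, and OCI-Ly1 started lower and rose farther. CDKN1A rose by 1.16 (SE 0.07, adjusted p = 2.3e-08) at 150 nM and by 3.05 (SE 0.07, adjusted p = 5.3e-16) at 500 nM in OCI-Ly1, an 8.27-fold rise. The rises in TMD8 were 1.07 (SE 0.06, adjusted p = 1.3e-09) and 1.48 (SE 0.06, adjusted p = 2.4e-12).

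GADD45A, a stress sensor of the growth arrest and DNA damage family, was not called in OCI-Ly1, where it was high, and rose in TMD8, where it was low. In OCI-Ly1 its libraries held 40.1, 49.2 and 51.9 CPM with DMSO, 48.8, 45.3 and 50.7 at 150 nM, then 55.2, 52 and 52.1 at 500 nM. In TMD8 they held 3.69, 3.51 and 2.88, then 13, 16.8 and 18.2, then 29.1, 27.7 and 27.9 CPM. The TMD8 groups did not overlap, and even at 500 nM TMD8 stayed below every OCI-Ly1 library. The TMD8 rise was 2.28 (SE 0.14, adjusted p = 1.7e-09) at 150 nM and 3.11 (SE 0.13, adjusted p = 2.3e-12) at 500 nM. The OCI-Ly1 change at 500 nM was 0.18 (SE 0.08, adjusted p = 0.078), and it was called without the third DMSO library (0.26, adjusted p = 0.018).

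BTG2, an antiproliferative gene that also acts in mRNA decay, was the member with the highest TPM with DMSO in both lines, 127 in OCI-Ly1 and 101 in TMD8. Its OCI-Ly1 libraries held 254, 269 and 234 CPM with DMSO, 235, 228 and 224 at 150 nM, then 189, 187 and 183 at 500 nM. Its TMD8 libraries held 388, 389 and 400, then 491, 492 and 491, then 514, 538 and 528 CPM. The 500 nM libraries lay below those with DMSO in OCI-Ly1 and above them in TMD8. BTG2 fell by 0.44 (SE 0.05, adjusted p = 2.3e-06) in OCI-Ly1 and rose by 0.46 (SE 0.04, adjusted p = 7.6e-08) in TMD8 at 500 nM. The TMD8 change was 0.08 on log2(TPM + 1) (adjusted p = 0.45).

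The polo-like kinases PLK2 and PLK3, stress-responsive relatives of the mitotic kinase PLK1, were each low in 1 line. PLK2 rose in OCI-Ly1 from 11.4 ± 1.14 to 20.6 ± 1.3 and 48 ± 1.58 CPM, by 0.84 (SE 0.09, adjusted p = 1.8e-05) and 2.06 (SE 0.08, adjusted p = 7.3e-13). In TMD8 PLK2 had 0 counts in each DMSO library and at most 3 in any other, so no change is given. PLK3 rose at 500 nM by 0.64 (SE 0.13, adjusted p = 5.2e-04) in OCI-Ly1, to 7.81 ± 0.534 CPM, and by 0.96 (SE 0.06, adjusted p = 2.6e-10) in TMD8, to 83.5 ± 2.9 CPM.

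**Figure D3:**
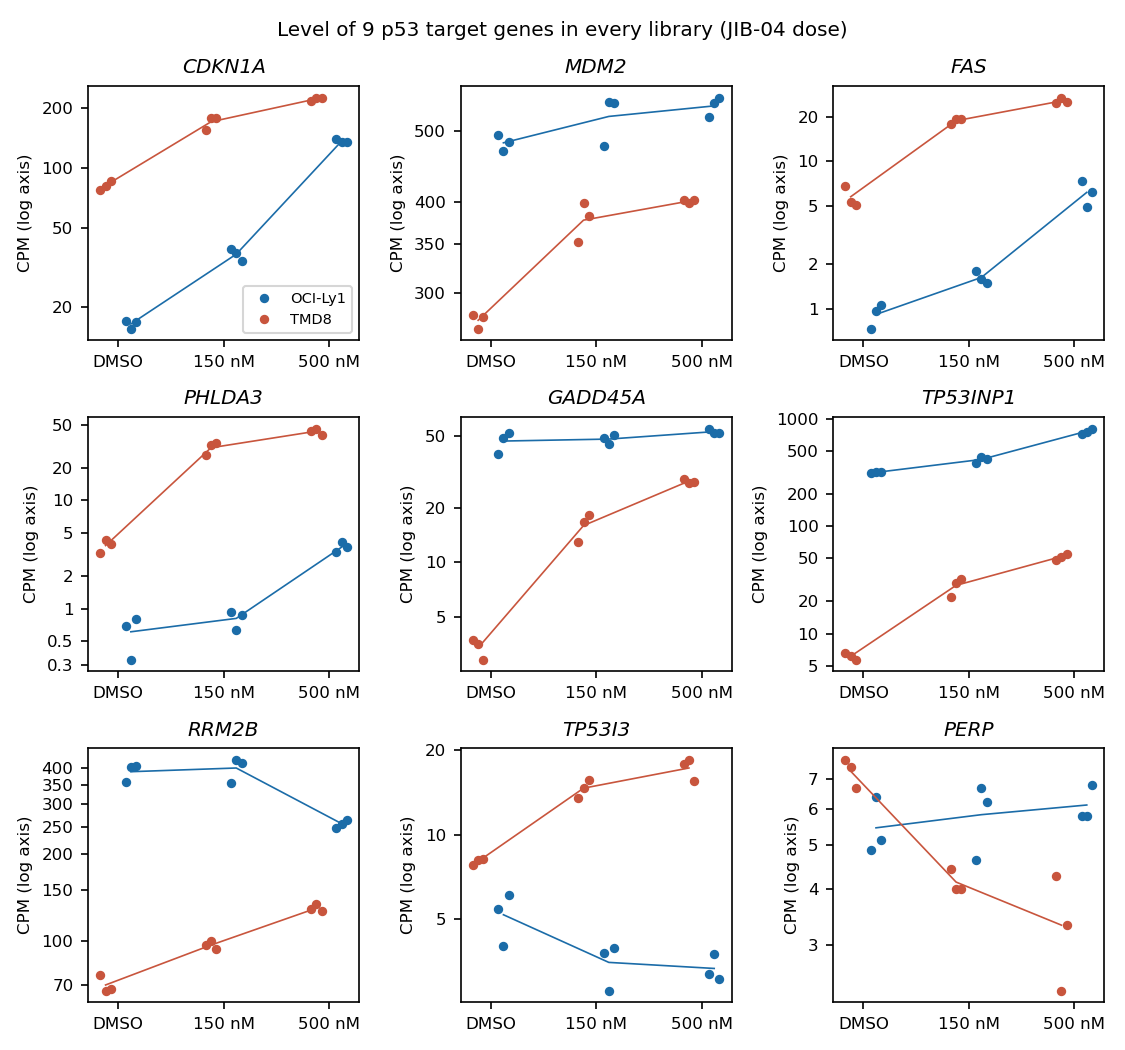
CPM of 9 p53 target genes (log axis, with its own range in each panel) in every library, by line and JIB-04 dose; points are libraries and lines join the means of 3 libraries. CDKN1A, FAS and PHLDA3 rise in both lines, RRM2B and TP53I3 go down in OCI-Ly1 and up in TMD8, and PERP goes down in TMD8.

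Death receptor genes split by member. FAS, the receptor for FAS ligand, stood in OCI-Ly1 at 0.728, 0.958 and 1.05 CPM with DMSO, 1.8, 1.59 and 1.49 at 150 nM, then 7.35, 4.9 and 6.21 at 500 nM. In TMD8 it stood at 6.84, 5.32 and 5.08, then 17.8, 19.5 and 19.3, then 24.7, 27.1 and 25.3 CPM. Neither line's dose groups overlapped, and the OCI-Ly1 level at 500 nM was about that of TMD8 with DMSO. FAS rose at 500 nM by 2.76 (SE 0.22, adjusted p = 7.9e-09) in OCI-Ly1, on 17 to 27 counts per library with DMSO, and by 2.2 (SE 0.1, adjusted p = 8.2e-12) in TMD8. At 150 nM it rose by 1.73 (SE 0.1, adjusted p = 1.9e-09) in TMD8, while in OCI-Ly1 the change was 0.84 (SE 0.25, adjusted p = 0.16).

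TNFRSF10B, the TRAIL receptor DR5, rose at 500 nM by 1.15 (SE 0.07, adjusted p = 2.0e-10) in OCI-Ly1, from 35.1 ± 2.71 to 77.7 ± 1.79 CPM. In TMD8 it rose by 1.31 (SE 0.06, adjusted p = 4.0e-12), from 44.9 ± 1.92 to 109 ± 2.96 CPM. TNFRSF10A, the related TRAIL receptor DR4, fell in OCI-Ly1 by 0.42 (SE 0.07, adjusted p = 8.0e-05), from 33.9 ± 1.22 to 25.2 ± 0.564 CPM. In TMD8 its change was 0.26 (SE 0.11, adjusted p = 0.054), and it was called without the first 500 nM library (0.34, adjusted p = 0.036). The pair of TRAIL receptors therefore moved apart in OCI-Ly1.

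Among the other 10 genes tied to cell death, 7 rose and 2 fell in OCI-Ly1 at 500 nM, and 9 rose and 1 fell in TMD8. Of all tested genes, 27.7% rose and 25.9% fell in OCI-Ly1, and 29.9% rose and 30.7% fell in TMD8. PHLDA3, an inhibitor of AKT, held 0.69, 0.338 and 0.813 CPM with DMSO, 0.939, 0.635 and 0.872 at 150 nM, then 3.35, 4.09 and 3.68 at 500 nM in OCI-Ly1. In TMD8 it held 3.29, 4.27 and 3.93, then 26, 32.2 and 33.6, then 44, 46 and 40.5 CPM. In OCI-Ly1 the 150 nM libraries overlapped those with DMSO, and in TMD8 no groups overlapped. PHLDA3 rose at 500 nM by 2.53 (SE 0.27, adjusted p = 4.3e-07) in OCI-Ly1, on 6 to 21 counts per library with DMSO, and by 3.53 (SE 0.12, adjusted p = 2.2e-13) in TMD8, an 11.5-fold rise. Most of the TMD8 rise was there at 150 nM, 3 on the log2 scale (SE 0.12, adjusted p = 4.0e-11).

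TP53INP1, a stress-induced gene of autophagy and cell death, was high in OCI-Ly1 and low in TMD8. Its OCI-Ly1 libraries held 310, 318 and 319 CPM with DMSO, 385, 441 and 424 at 150 nM, then 724, 757 and 807 at 500 nM. Its TMD8 libraries held 6.57, 6.2 and 5.71, then 22.1, 29.8 and 32.5, then 48.8, 52.1 and 55.5 CPM. The groups were ordered by dose without overlap in both lines. TP53INP1 rose by 0.4 (SE 0.05, adjusted p = 5.5e-04) and 1.28 (SE 0.06, adjusted p = 2.2e-12) in OCI-Ly1, the former not called on the log2(TPM + 1) scale (0.42, adjusted p = 0.09). In TMD8 it rose by 2.21 (SE 0.13, adjusted p = 1.5e-09) and 3.11 (SE 0.13, adjusted p = 1.4e-12).

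TP53I3, a quinone oxidoreductase also called PIG3, went opposite ways. In OCI-Ly1 it stood at 5.44, 4 and 6.12 CPM with DMSO, 3.8, 2.78 and 3.95 at 150 nM, then 3.2, 3.75 and 3.07 at 500 nM. In TMD8 it stood at 7.78, 8.13 and 8.18, then 13.5, 14.7 and 15.7, then 17.8, 18.5 and 15.5 CPM. The treated OCI-Ly1 libraries lay below and the treated TMD8 libraries above their DMSO libraries. TP53I3 fell by 0.65 (SE 0.18, adjusted p = 0.006) in OCI-Ly1 at 500 nM, or by 0.45 on log2(TPM + 1) with an adjusted p of 0.055, and rose by 1.14 (SE 0.1, adjusted p = 2.4e-08) in TMD8.

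PERP, a membrane protein of cell adhesion and p53-dependent death, was the 1 member that fell in TMD8. It held 7.71, 7.43 and 6.66 CPM with DMSO, 4.42, 3.99 and 4 at 150 nM, then 4.26, 2.38 and 3.33 at 500 nM there. In OCI-Ly1 it held 4.87, 6.37 and 5.11, then 4.62, 6.66 and 6.2, then 5.78, 5.8 and 6.78 CPM. Every treated TMD8 library lay below those with DMSO, whereas the OCI-Ly1 groups overlapped. PERP fell in TMD8 by 0.81 (SE 0.17, adjusted p = 7.2e-04) and 1.08 (SE 0.18, adjusted p = 4.3e-05), and its change in OCI-Ly1 at 500 nM was 0.18 (SE 0.16, adjusted p = 0.34). The filter on low TPM left PERP out of the other TPM fits in TMD8, and on unfiltered log2(TPM + 1) it was called lower at both doses, having fallen by 0.44 and 0.61.

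CYFIP2, which binds the FMRP protein and takes part in actin control, fell in OCI-Ly1 by 0.32 (SE 0.05, adjusted p = 1.8e-05) and rose in TMD8 by 1.1 (SE 0.05, adjusted p = 1.7e-11) at 500 nM. Its levels with DMSO were 384 ± 3.87 and 271 ± 14.1 CPM, and at 500 nM 308 ± 7.94 and 568 ± 16.8 CPM. The 5 remaining death genes rose in both lines at 500 nM, by 0.24 to 1.32 in OCI-Ly1 and by 0.39 to 1.27 in TMD8. NINJ1, which ruptures the plasma membrane of dying cells, rose by 1.32 (SE 0.12) and 1.19 (SE 0.14), and ZMAT3, an RNA-binding splicing regulator, by 0.28 (SE 0.06) and 1.27 (SE 0.05). AEN, a nuclease, rose by 0.36 (SE 0.07) and 0.54 (SE 0.04). RPS27L, a ribosomal protein relative whose reads could be shared with RPS27, rose by 0.48 (SE 0.08) and 0.62 (SE 0.06), and TRIAP1, a mitochondrial lipid transfer protein, by 0.24 (SE 0.07) and 0.39 (SE 0.07). In TMD8 at 500 nM the log2(TPM + 1) scale gave 0.16 for AEN (adjusted p = 0.1) and 0.02 for TRIAP1 (adjusted p = 0.88). TRIAP1 at 150 nM in TMD8 (0.19, adjusted p = 0.024) was lost without the first DMSO library (adjusted p = 0.055) or without the second (0.081) or the third (0.053) library at 150 nM.

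The 4 genes of DNA repair and nucleotide supply all rose in TMD8 at both doses, while in OCI-Ly1 at 500 nM 1 rose and 2 fell. With 27.7% of all tested genes higher and 25.9% lower in OCI-Ly1, so small a group cannot be told from that background by its count. The share of all tested genes called higher in TMD8 was 19.2% at 150 nM and 29.9% at 500 nM. RRM2B, the ribonucleotide reductase subunit p53R2, stood in OCI-Ly1 at 357, 402 and 406 CPM with DMSO, 355, 428 and 417 at 150 nM, then 248, 256 and 264 at 500 nM. In TMD8 it stood at 75.9, 67 and 67.8, then 96.5, 100 and 93.6, then 129, 134 and 127 CPM. In OCI-Ly1 the 500 nM libraries lay below all others, and in TMD8 the groups rose with dose without overlap. RRM2B fell by 0.6 (SE 0.07, adjusted p = 8.7e-07) in OCI-Ly1 and rose by 0.92 (SE 0.05, adjusted p = 7.3e-11) in TMD8 at 500 nM.

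DDB2, which recognises ultraviolet lesions, rose to nearly the same extent in both lines at 500 nM, by 0.89 (SE 0.05, adjusted p = 1.9e-10) in OCI-Ly1 and by 0.87 (SE 0.06, adjusted p = 7.4e-10) in TMD8. At 150 nM in OCI-Ly1 the DDB2 change was 0.23 (SE 0.05, adjusted p = 0.055), with DESeq2 0.24 (adjusted p = 0.0055). XPC, its partner in global nucleotide excision repair, rose in TMD8 by 0.86 (SE 0.06, adjusted p = 1.2e-09). Its change in OCI-Ly1 was -0.16 (SE 0.07, adjusted p = 0.062), called without the first 500 nM library (-0.22, adjusted p = 0.025). POLH, the lesion-bypass polymerase eta, fell in OCI-Ly1 by 0.29 (SE 0.06, adjusted p = 6.9e-04) and rose in TMD8 by 0.69 (SE 0.06, adjusted p = 2.2e-08). The POLH fall was -0.14 on log2(TPM + 1) (adjusted p = 0.087).

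Among the genes of metabolism, autophagy and secretion, all 5 rose in TMD8 at both doses, and at 500 nM in OCI-Ly1 3 of the 4 tested rose and 1 fell. Of all tested genes, 19.2% rose in TMD8 at 150 nM and 29.9% at 500 nM. At 500 nM in OCI-Ly1 27.7% rose and 25.9% fell, and 4 genes are too few to be told from that background by their count. GDF15, a secreted stress hormone, went from nearly nothing to a measurable level in both lines. In OCI-Ly1 its libraries held 0.0383, 0.113 and 0 CPM with DMSO, 0.117, 0.0397 and 0.205 at 150 nM, then 2, 1.71 and 2.15 at 500 nM. In TMD8 they held 0, 0.0585 and 0.0524, then 4.49, 4.86 and 8.06, then 11.4, 11.8 and 11.1 CPM. All treated TMD8 libraries and the 500 nM OCI-Ly1 libraries lay above those with DMSO, whereas the OCI-Ly1 libraries at 150 nM overlapped them. Since the DMSO groups held 3 counts in OCI-Ly1 and 2 in TMD8, folds are given as ratios of summed counts with exact 95% counting intervals. The ratio at 500 nM was 45.7 (15.4 to 224) in OCI-Ly1 and 294 (80.8 to 2430) in TMD8. At 150 nM it was 2.64 (0.635 to 15.5) and 156 (42.7 to 1290). These intervals cover counting error only; the edgeR adjusted p was 3.2e-07 and 2.7e-11 at 500 nM.

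SESN1, the sestrin that restrains mTORC1, rose at 500 nM by 0.92 (SE 0.1, adjusted p = 5.3e-07) in OCI-Ly1, from 10.8 ± 0.688 to 20.4 ± 1.17 CPM. In TMD8 it rose by 2.36 (SE 0.12, adjusted p = 2.1e-11), from 4.56 ± 0.303 to 23 ± 0.237 CPM. FDXR, the mitochondrial ferredoxin reductase, rose by 0.77 (SE 0.11, adjusted p = 9.1e-06) and 1.42 (SE 0.08, adjusted p = 3.7e-11). DRAM1, a lysosomal protein of autophagy, rose in TMD8 by 0.58 (SE 0.07, adjusted p = 2.3e-06), or 0.18 on log2(TPM + 1) with an adjusted p of 0.051. In OCI-Ly1 it fell by 0.35 (SE 0.13, adjusted p = 0.029). That fall was lost without the second DMSO library (adjusted p = 0.079), without the first (0.054) or second (0.077) 500 nM library, and with DESeq2 (0.056). SPATA18, a mitochondrial quality control gene, rose in TMD8 from 4.05 ± 1.44 to 13.4 ± 1.69 and 19.8 ± 1.55 CPM, by 2.34 (SE 0.16, adjusted p = 1.3e-09) at 500 nM. In OCI-Ly1 it had 0 counts with DMSO and at 150 nM and 9 counts in all at 500 nM.

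From 150 to 500 nM, 23 members rose further in TMD8 and none fell (none at an unadjusted p under 0.05 in edgeR, and none by DESeq2), where 13.7% of all tested genes rose and 15% fell. The largest of these steps, apart from GDF15 (0.97, SE 0.18), were TP53INP1 (0.9, SE 0.1), GADD45A (0.84, SE 0.1) and SESN1 (0.84, SE 0.1). On the log2(TPM + 1) scale the count for this step was 5 higher and 2 lower. There 4007 of all 12715 genes tested were called, and 6.21% of those calls were higher. In OCI-Ly1, 15 members rose and 4 fell over the same step, where 25.1% of all tested genes rose and 21.1% fell. Here CDKN1A stepped up by 1.89 (SE 0.06, adjusted p = 1.9e-13), against 0.41 (SE 0.06, adjusted p = 7.1e-05) in TMD8. FAS stepped up by 1.92 (SE 0.2) in OCI-Ly1 and 0.47 (SE 0.09) in TMD8, and PHLDA3 by 2.19 (SE 0.26) and 0.53 (SE 0.09). MDM2 was not called over this step in either line (0.05, adjusted p = 0.43, and 0.12, adjusted p = 0.087).

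The difference of induction between the lines was tested directly. The quantity is the OCI-Ly1 log2 change less the TMD8 log2 change at a dose. At 150 nM, 22 members were lower in OCI-Ly1 by this measure and 1, PERP, was higher, where 8.33% of all tested genes were lower and 15% higher in this contrast. At 500 nM, 17 members were lower and 3 higher, against 18.1% and 28.2% of all tested genes. The median difference over the members was -0.58 at 150 nM and -0.65 at 500 nM, where that over all genes tested was 0 and 0.05. On the log2(TPM + 1) scale, where the all-gene median difference was 0.47, the count at 500 nM was 10 higher and 14 lower. There 9617 of all 14659 genes tested were called, and 91.4% of those calls were higher.

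At 500 nM the 3 members with the larger change in OCI-Ly1 were CDKN1A, PERP and FAS. CDKN1A differed by 1.6 (SE 0.09, adjusted p = 2.5e-13), although at 150 nM its difference was 0.1 (SE 0.09, adjusted p = 0.5). PERP differed by 1.29 (SE 0.24, adjusted p = 1.1e-04), through its fall in TMD8, or 0.33 on the centred TPM scale (adjusted p = 0.053). FAS differed by 0.6 (SE 0.24, adjusted p = 0.045), and this call was lost, with an adjusted p from 0.058 to 0.19, without any 1 of 7 libraries, namely the first or the second OCI-Ly1 DMSO, the first or the third OCI-Ly1 500 nM, the first TMD8 DMSO, or the first or the third TMD8 500 nM library. On log2(TPM + 1) it was 0.26 (adjusted p = 0.15). On the centred TPM scale the sign of the FAS difference was reversed (-0.22, adjusted p = 0.18). At 150 nM FAS differed the other way, by -0.88 (SE 0.28, adjusted p = 0.022), which was lost without the second (adjusted p = 0.054) or the third (0.11) OCI-Ly1 DMSO library.

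The members with the largest differences toward TMD8 at 500 nM were GADD45A (-2.91, SE 0.16, adjusted p = 1.7e-13), TP53INP1 (-1.81, SE 0.14, adjusted p = 9.9e-11) and TP53I3 (-1.77, SE 0.2, adjusted p = 9.8e-08). RRM2B (-1.49, SE 0.09) and CYFIP2 (-1.39, SE 0.08) followed, both of which fell in OCI-Ly1, and SESN1 (-1.41, SE 0.16), which rose in both lines. XPC, ZMAT3, POLH, DRAM1, PPM1D, BTG2, TNFRSF10A and FDXR were also lower in this contrast, by -0.99 to -0.63, and PHLDA3 by -0.99, which was lost without the third OCI-Ly1 DMSO library (adjusted p = 0.095). MDM2 differed by -0.37 (SE 0.08, adjusted p = 3.6e-04) and PLK3 by -0.3 (SE 0.12, adjusted p = 0.045), but on the log2(TPM + 1) scale these were 0.11 and 0.07, and the PLK3 call was lost without any 1 of 8 of the 12 libraries at DMSO and 500 nM (adjusted p up to 0.17). DDB2, NINJ1 and TNFRSF10B were not shown to differ, with differences of 0.05 (SE 0.08), 0.16 (SE 0.19) and -0.13 (SE 0.09). With limma on log2(TPM + 1) these were 0.55 (adjusted p = 1.3e-04), 0.62 (adjusted p = 0.019) and 0.36 (adjusted p = 0.0027), the last with its sign reversed. On that scale PPM1D (-0.31, adjusted p = 0.068), TNFRSF10A (-0.2, adjusted p = 0.11) and FDXR (-0.09, adjusted p = 0.54) were no longer called. PLK2, SPATA18 and GDF15 were at or near 0 in a group and their fitted differences are not read.

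**Figure D4:**
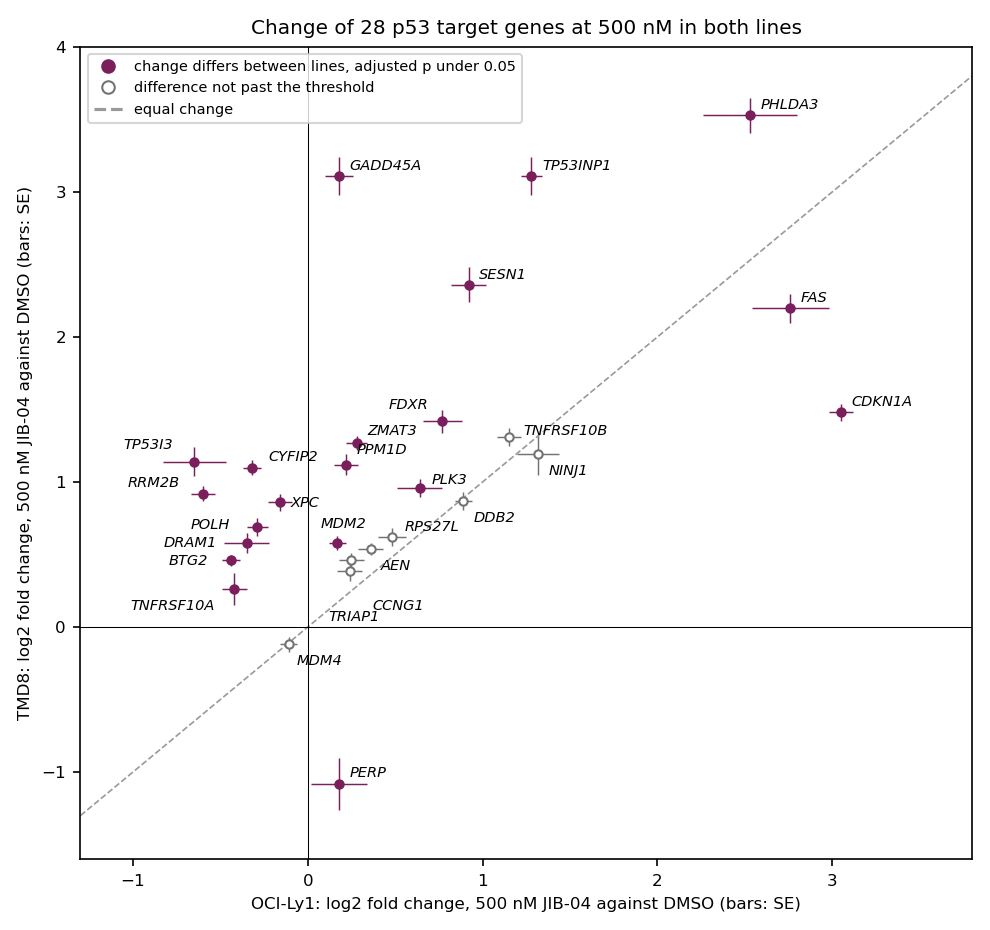
Log2 fold change at 500 nM against DMSO in OCI-Ly1 (x axis) and TMD8 (y axis) for 28 p53 target genes, with bars of 1 SE in each direction and filled points where the difference of change passed the test; the dashed line marks equal change. CDKN1A, FAS and PERP lie below the line among the filled points, and GADD45A and TP53INP1 lie farthest above it; the FAS difference reverses on the centred TPM scale, and those of MDM2 and PLK3 on the uncentred one.

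Without JIB-04 the lines already differed in most members. With DMSO, 15 members were higher and 14 lower in OCI-Ly1 than in TMD8. Among all tested genes 37.8% were higher and 39% lower, so the members' split was that of genes at large in direction. TP53INP1 (5.68, SE 0.11), GADD45A (3.82, SE 0.13), RRM2B (2.47, SE 0.07), TNFRSF10A (1.91, SE 0.09) and SESN1 (1.24, SE 0.13) were among those higher in OCI-Ly1, on the log2 scale. PLK3 (-3.12, SE 0.09), FAS (-2.65, SE 0.2), PHLDA3 (-2.57, SE 0.23), CDKN1A (-2.31, SE 0.07) and DRAM1 (-2.11, SE 0.09) were among those lower. The widest gaps were in genes at 0 in a line. PLK2, with 805 counts over the OCI-Ly1 DMSO libraries and 0 in TMD8, was at least 197-fold higher in OCI-Ly1, and SPATA18, with 203 counts in TMD8 and 0 in OCI-Ly1, was at least 92.3-fold higher in TMD8 (floor of 3 counts over the group). On the log2(TPM + 1) scale, where the all-gene median difference was 0.8, the split was 23 higher and 6 lower. There 12833 of all 14659 genes tested were called, and 81.1% of those calls were higher. On that scale MDM4, BTG2, TNFRSF10B, AEN, PERP, TP53I3, NINJ1, ZMAT3 and FDXR changed sign.

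Per length, the members spanned a wide range with DMSO. In OCI-Ly1 the highest after BTG2 were RRM2B at 105 TPM and MDM2 at 84.8 TPM, while FAS and PHLDA3 were at 0.471 and 0.543 TPM. In TMD8 AEN at 31 TPM, CYFIP2 at 27.9 TPM and CDKN1A at 26.5 TPM followed BTG2, and TP53INP1 was at 0.743 TPM. At 500 nM TP53INP1 had become the highest member in OCI-Ly1, at 198 TPM.

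No p53 protein was measured. Of a list of 24 p53 family members and regulators, 11 of 24 tested rose and 5 fell in OCI-Ly1 at 500 nM, and 9 of 23 rose and 8 fell in TMD8. Among all tested genes the shares were 27.7% higher and 25.9% lower in OCI-Ly1 and 29.9% and 30.7% in TMD8, so the TMD8 split was near that of all genes. TP63, a p53 family member, rose in TMD8 by 1.08 (SE 0.06, adjusted p = 2.4e-11) to 120 ± 5.84 CPM, but in OCI-Ly1 it held 1 count over the DMSO libraries and 61 at 500 nM, a ratio of 45.5 (counting interval 7.86 to 1830). TP73 rose in OCI-Ly1 by 1.23 (SE 0.21, adjusted p = 9.0e-05), to 4.43 ± 0.136 CPM. In TMD8 its level was 5.99 ± 0.332 CPM with DMSO and 10.6 ± 0.791 at 500 nM. PPP1R13L, the p53 inhibitor iASPP, rose in TMD8 by 1.14 (SE 0.14, adjusted p = 2.0e-06). USP7, the deubiquitinase of MDM2 and p53, fell in both lines, by 0.43 (SE 0.05) and 0.46 (SE 0.06). CHEK2 fell in OCI-Ly1 by 0.59 (SE 0.07) and ATR, the replication stress kinase, fell in TMD8 by 0.48 (SE 0.05). In the other line, CHEK2 was 12 ± 0.866 CPM with DMSO and 9.24 ± 1.53 at 500 nM in TMD8. ATR was 196 ± 9.76 and 162 ± 5.57 CPM in OCI-Ly1.

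A list of 52 other p53 targets mostly rose at 500 nM. Of 45 tested in OCI-Ly1, 26 rose and 5 fell, and of 49 tested in TMD8, 43 rose and 2 fell, beside 27.7% higher and 25.9% lower among all tested genes in OCI-Ly1 and 29.9% and 30.7% in TMD8. At 150 nM 2 rose in OCI-Ly1, where 0.748% of all tested genes rose, while 33 rose and 1 fell in TMD8, where 19.2% rose and 25% fell. SESN2, a sestrin that also answers to ATF4, rose most in both lines, by 3.68 (SE 0.08) in OCI-Ly1 and 3.67 (SE 0.13) in TMD8. DDIT4, an mTORC1 inhibitor, rose by 2.88 (SE 0.13) in OCI-Ly1, and WDR63 by 3.63 (SE 0.3) in TMD8, on 4 to 9 counts per library with DMSO. CD82, a tetraspanin, fell by 1.58 (SE 0.16) in OCI-Ly1 and rose by 0.96 (SE 0.06) in TMD8. THBS1 fell in OCI-Ly1 by 1.47 (adjusted p = 0.017), which rested on the second DMSO library (-0.34 without it, adjusted p = 0.41), and was lost too without the first (0.05) or second (0.052) library at 500 nM. SFN and PML fell in TMD8, by 0.66 (SE 0.08) and 0.24 (SE 0.05).

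The death effectors of the BCL2 family were singled out after their values were seen. BBC3, which encodes PUMA, rose at 500 nM by 2.57 (SE 0.12, adjusted p = 6.0e-12) in OCI-Ly1, from 5.96 ± 0.9 to 35 ± 3.33 CPM, and by 2.21 (SE 0.09, adjusted p = 2.4e-12) in TMD8, from 25.5 ± 4 to 116 ± 6.55 CPM. PMAIP1, which encodes NOXA, rose by 0.93 (SE 0.08) and 1.72 (SE 0.05). BAX rose by 0.69 (SE 0.05, adjusted p = 4.2e-09) in TMD8. In OCI-Ly1 the BAX change was 0.2 (SE 0.07, adjusted p = 0.034), and it was lost without the third DMSO library (adjusted p = 0.17) or without any 1 of the 500 nM libraries (0.06 to 0.12).

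Genes known to be lowered through p21 and the DREAM repressor complex mostly fell. Of 16 tested, 12 fell in OCI-Ly1 at 500 nM, and 15 fell in TMD8, where 25.9% and 30.7% of all tested genes fell. At 150 nM 15 fell in TMD8 and edgeR called none in OCI-Ly1, where 4 were lower at an unadjusted p under 0.05 and DESeq2 called 1. Of all tested genes, 25% fell in TMD8 at that dose and 0.141% in OCI-Ly1. No call among 16 genes in OCI-Ly1 is therefore near the share of genes at large. PLK1, the mitotic kinase, fell at 500 nM by 1.46 (SE 0.07) in OCI-Ly1 and 2.93 (SE 0.09) in TMD8. CCNB1, the mitotic cyclin B1, fell in OCI-Ly1 by 1.27 (SE 0.05), and CDC20, an activator of the anaphase-promoting complex, fell in TMD8 by 2.59 (SE 0.1).

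A list of 10 genes, called ATF4 and CHOP targets here, rose as a whole beside the p53 targets. It includes ATF4 itself and DDIT3, the gene of CHOP. All 10 rose in both lines at 500 nM, and at 150 nM 8 rose in OCI-Ly1 and 10 in TMD8. The shares of all tested genes called higher were 27.7% in OCI-Ly1 and 29.9% in TMD8 at 500 nM, and 0.748% and 19.2% at 150 nM. CHAC1, a glutathione-degrading enzyme, rose at 500 nM by 4.62 (SE 0.1) in OCI-Ly1 and 5.86 (SE 0.17) in TMD8. ATF3 rose in OCI-Ly1 by 6.13 (SE 0.22), on 3 to 14 counts per library with DMSO, and CEBPB in TMD8 by 3.02 (SE 0.1). In OCI-Ly1 at 150 nM, where 3 of 30 p53 target genes were called, the median change of the 10 ATF4 and CHOP targets was 0.77 and that of the p53 target genes 0.12. The part of these genes' regulators in the changes of GDF15, TNFRSF10B and SESN2 was not tested.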

How the data were processed

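Per the labels' protocols, total RNA was column-purified, depleted of ribosomal RNA and made into paired-end libraries as technical triplicates. The authors deposited a table of estimated counts and a table of TPM for each line. The submitters' processing notes name kallisto 0.46.0, R 4.3.1, DESeq2 1.40.2 and hg19, with no role given; the step from transcripts to genes and the strand setting are not given in the sources used here. Deposited TPM are scaled to a fixed sum per library and were used only in alternatives and for levels per length.

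The deposited estimated counts were rounded to whole numbers and tested here with edgeR 4.0.16 in R 4.3.3 (TMM, filterByExpr by group, quasi-likelihood). The 9 libraries of a line were fitted together, with 1 term per group and no covariate. A single fit of all 18 gave line differences, DMSO contrasts and every CPM. SE is the absolute log2 change over the square root of F. P-values were adjusted within each of 9 comparisons over all genes tested. Alternatives were DESeq2 1.42.0, library size only, no low-count filter, limma 3.58.1 on log2(TPM + 1), log2(TPM + 0.1), log2(TPM + 1) centred or unfiltered (otherwise TPM of at least 1 in at least 3 libraries), a replicate block, only the groups compared, and leaving out each library. A floor of 3 counts was used for genes at 0.

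The scripts were tested on simulated data: of 200 changed genes per comparison at 500 nM, 100 at each size, those changed by 1 on the log2 scale were recovered in 100% of cases in OCI-Ly1, 99% in TMD8 and 95% for the line difference. Only well-counted genes were changed, and all genes were given a common spread. In the data 8387 genes were called at 500 nM in OCI-Ly1 and 9324 in TMD8, far more than were changed here. Recovery of members with few counts, or under so broad a change, was not tested.

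The members and lists were chosen with earlier results of these data known. All 31 members are described, with values in every library for CDKN1A, MDM2, the called members with the 4 largest rises and 3 largest falls at 500 nM in each line and the 3 largest line differences in each direction. Of each other list, the 2 largest called rises and 2 largest falls per line are named, apart from a few genes that are not reported here. Counts of those lists were made after TMM scaling only. Promoter sequences come from RefSeq on GRCh38.p14, another build than hg19, so no coordinate is compared with the authors' files.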

Additional observations from a re-analysis of the deposited data

Results flagged for a closer look

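The members below are listed because their change against DMSO differed between the lines by the test of the difference itself (edgeR, adjusted p under 0.05). Values are the log2 change in OCI-Ly1 minus that in TMD8, so a negative value is a larger rise, or a smaller fall, in TMD8.

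At 150 nM the differences of the genes that feed back on p53 were -0.34 for MDM2 and -0.7 for PPM1D. Among the arrest genes they were -2.24 for GADD45A, -0.46 for BTG2 and -0.58 for PLK3. The receptor genes gave -0.88 for FAS and -0.69 for TNFRSF10B. Among the other death genes, PHLDA3 differed by -2.66, TP53INP1 by -1.81, TP53I3 by -1.46, CYFIP2 by -0.72, ZMAT3 by -0.72, RPS27L by -0.47 and AEN by -0.28, while PERP differed by 0.92. The repair genes gave -0.61 for XPC, -0.58 for POLH, -0.53 for DDB2 and -0.42 for RRM2B. SESN1 differed by -1.21, FDXR by -0.91 and DRAM1 by -0.5. GDF15 gave a fitted -5.74, which rests on 3 and 2 counts in the DMSO groups, is no measured size and was not called without the second OCI-Ly1 DMSO library (adjusted p = 0.18). AEN was lost (adjusted p 0.055 to 0.083) without the first or second OCI-Ly1 DMSO or the third OCI-Ly1 150 nM library. On log2(TPM + 1), MDM2 (-0.15, adjusted p = 0.37), PLK3 (-0.37, adjusted p = 0.061), AEN (-0.11, adjusted p = 0.46), RPS27L (-0.27, adjusted p = 0.13) and RRM2B (-0.22, adjusted p = 0.27) were not called, nor was PERP on the centred scale (0.37, adjusted p = 0.06).

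At 500 nM the differences were -0.37 for MDM2, -0.87 for PPM1D, 1.6 for CDKN1A, -2.91 for GADD45A, -0.86 for BTG2 and -0.3 for PLK3. FAS differed by 0.6, TNFRSF10A by -0.65 and PERP by 1.29. TP53INP1 differed by -1.81, TP53I3 by -1.77, CYFIP2 by -1.39, PHLDA3 by -0.99 and ZMAT3 by -0.95. RRM2B gave -1.49, XPC -0.99 and POLH -0.94, while SESN1 gave -1.41, DRAM1 -0.9 and FDXR -0.63. The values that reverse with the scale are named in the part on processing.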

How the results depend on the processing

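No direction of a member against DMSO was reversed by any alternative. Of 5671 single-gene values under alternatives, 5287 kept their direction and side of the threshold, 226 were no longer called, 84 became called and 74 reversed. Most reversals came from uncentred TPM, whose typical gene moved in TMD8 as given in the report.

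On log2(TPM + 1), log2(TPM + 0.1) and unfiltered log2(TPM + 1), respectively, the members lower at 500 nM in OCI-Ly1 numbered 4, 4 and 4 (main 7). Of all genes called in that comparison, 71.8%, 71.9% and 73.1% were higher (main 51.6%). For 500 against 150 nM in TMD8 those higher numbered 5, 5 and 4 (main 23) and those lower 2, 2 and 2 (main 0). Of all genes called in that step, 6.21%, 5.38% and 13.2% were higher (main 47.9%). For the line difference those higher numbered 2, 3 and 2 at 150 nM (main 1) and 10, 11 and 10 at 500 nM (main 3). Of all genes called for that difference, 86.9%, 87% and 84.4% were higher at 150 nM (main 64.2%). At 500 nM 91.4%, 92.3% and 88.6% were higher (main 60.9%). With DMSO, 23 and 23 were higher in OCI-Ly1 on the first 2 of these scales (main 15) and 6, 6 and 6 lower (main 14). Of all genes called between the lines with DMSO, 81.1%, 81% and 79.1% were higher in OCI-Ly1 (main 49.2%). The members lower in TMD8 at 150 nM were 0 on log2(TPM + 1), log2(TPM + 0.1) and the centred scale (main 1, PERP, which the low-TPM filter left out of these fits). At 500 nM in TMD8, where 1 was lower, the count was 2 with DESeq2, without the low-count filter, on unfiltered TPM and with the replicate block, and 0 on the centred scale.

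Leaving out single libraries gave 3 to 6 members higher at 150 nM in OCI-Ly1 and, in TMD8, 1 to 2 lower at each dose, with 2 reached without the first DMSO library. The replicate number was used as a block because the labels number the libraries of every group. Same-numbered libraries deviated together little (correlations -0.0462 to 0.146 in OCI-Ly1 and -0.0545 to 0.141 in TMD8, 2 of 9 over 0.1 in each). Differently numbered ones gave -0.173 to 0.0419 (0 of 18 over 0.1) and -0.19 to 0.105 (1 of 18). The same-numbered values over 0.1 all joined DMSO and 150 nM libraries, the first (0.123 in OCI-Ly1, 0.125 in TMD8) and the third (0.146 and 0.141). The numbers were not taken to pair the libraries in the main fit, although some pairing of these groups remains possible. With the replicate block, 4 members rose at 150 nM in OCI-Ly1 (3 without it), 19 rose and 8 fell at 500 nM, and 28 rose at 500 nM in TMD8. At 150 nM in OCI-Ly1 the calls over all genes were 207 with the block and 139 without it.

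The following changed sign. For 500 against 150 nM in TMD8 on the same 3 TPM scales in that order, BTG2 (main 0.13) was -0.09, -0.09 and -0.09, AEN (0.18) was -0.04 on all 3, TP53I3 (0.27) was -0.07, -0.08 and -0.07, RPS27L (0) was -0.21, -0.22 and -0.21, and TRIAP1 (0.2) was -0.02 on all 3. For the line difference at 500 nM, MDM2 (-0.37) was 0.11 on all 3, PLK3 (-0.3) was 0.07, 0.18 and 0.07, TNFRSF10B (-0.13) was 0.36, 0.35 and 0.36, AEN (-0.15) was 0.33 on all 3, RPS27L (-0.12) was 0.37 on all 3, and TRIAP1 (-0.12) was 0.35, 0.36 and 0.35. With limma on log2(TPM + 1) the reversed values of TNFRSF10B (adjusted p = 0.0027), AEN (0.0094), RPS27L (0.017) and TRIAP1 (0.0099) were called. Those of MDM2 (0.41) and PLK3 (0.69) were not. FAS (0.6) was -0.22 on the centred scale. PLK2 and SPATA18, at or near 0 in a line, reversed on all 4 TPM scales. PLK2 (-3.38 at 150 nM and -2.15 at 500 nM) was 0.74, 0.6, 0.6 centred and 0.74 at 150 nM, and 2, 1.95, 1.52 centred and 2 at 500 nM. SPATA18 (1.77 at 500 nM) was -1.04, -1.47, -1.52 centred and -1.04. Between the lines with DMSO, MDM4 (-0.56) was 0.4, 0.42 and 0.4, BTG2 (-0.64) was 0.33 on all 3, TNFRSF10B (-0.36) was 0.55, 0.61 and 0.55, and AEN (-0.44) was 0.52, 0.53 and 0.52. PERP (-0.42) was 0.32, 0.51 and 0.32, TP53I3 (-0.61) was 0.31, 0.37 and 0.31, NINJ1 (-0.53) was 0.36, 0.42 and 0.36, ZMAT3 (-0.09) was 0.82, 0.88 and 0.82, and FDXR (-0.6) was 0.33, 0.36 and 0.33. GDF15 (0.12), at the floor in both lines, was -0.75 on the centred scale. The cause of these changes was not tested. Depth limits PLK2 in TMD8 and GDF15 with DMSO, where no library held more than 3 counts, and SPATA18 in OCI-Ly1, where none held more than 7.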
